A study of Danio rerio with 47 samples.

Results

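Cytochrome P450 genes were described in developing trunks of zebrafish (Danio rerio) with and without a full complement of germ cells. They are the rows of the deposited expression table whose name begins with cyp and a digit. The table holds 71 such rows, and 67 of its 31475 rows remained after leaving out cyp19a1a, cyp17a1, cyp26a1 and cyp26b1. Of the 67 names, 57 are current symbols, 9 are older names of a current gene and 1, cyp27a7, had no match in the reference table of gene names. The older names kept here are cyp2aa3v1 (now cyp2aa3), cyp3c1l2 (now cyp3c3), cyp46a1 (now cyp46a1.1), cyp46a2 (now cyp46a1.4), cyp4v7 (now cyp4v2b), cyp4v8 (now cyp4v2a), cyp7a1a (now cyp7a1), cyp8b2 (now cyp8b1.2) and cyp8b3 (now cyp8b1.3). No cyp21a2 or cyp27b1 row is among the members.

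Expression was measured on 47 arrays of 1 colour. Morphants had received a morpholino (an antisense oligonucleotide) against dnd in the 1-cell embryo, which lowers the number of primordial germ cells, and were picked at 24 hours post fertilization for a germ cell number of 1 to 9. At 14 days post fertilization (dpf) the morphant group held 9 arrays and the wild-type group 14, and at 22 dpf these groups held 10 and 14. The labels describe no control morpholino for the wild type and leave it unsaid whether fish were pooled for an array, so p values measure the spread between arrays. All RNA was amplified before labelling. Because the arrays hold whole trunks, fewer cells of a type and less RNA per cell cannot be told apart in any value below.

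Cytochrome P450 enzymes carry a heme group and insert 1 oxygen atom into their substrate. Most sit in the endoplasmic reticulum and receive electrons from P450 reductase or cytochrome b5, while the mitochondrial members use ferredoxin. The CYP1, CYP2, CYP3 and CYP4 families oxidise drugs, pollutants, fatty acids and eicosanoids, chiefly in liver, gut and kidney. Other families make or break down steroid hormones, sterols, bile acids, vitamin D and retinoic acid. By these roles the members comprise 5 CYP1, 36 CYP2, 4 CYP3 and 4 CYP4 genes, 4 of steroid hormone synthesis, 9 of sterol and bile acid metabolism, 4 of vitamin D and retinoid metabolism, and cyp20a1, an enzyme without a known substrate.

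Values are log2 intensities, and differences are morphant minus wild type on that log2 scale with their standard error (SE) unless a spread is given as SD. Calls are adjusted p values below 0.05 from limma with Benjamini-Hochberg adjustment over all 31475 rows. Array medians lay between 7.26 and 7.57 at 14 dpf and between 7.58 and 7.70 at 22 dpf. In 6 pairs of arrays within a group the deviations from the group mean correlated at 0.741 to 0.901 over rows averaging 10 or more, against 0.52 in the next pair. These near-duplicate pairs were wild-type arrays 5 and 6, 7 and 8, and 9 and 10 and morphant arrays 1 and 2, and 3 and 4, all at 22 dpf, and morphant arrays 5 and 13 at 14 dpf. Arrays are numbered as in the sample titles. The targeted transcript, dnd1, was lower in morphants at 22 dpf (-3.76 ± 0.61, limma adjusted p = 2.78e-05) and differed by -1.28 ± 0.63 at 14 dpf (0.295), though a morpholino blocks translation and its transcript level does not check the knockdown. The germ cell list of 14 markers stood lower in morphants, with 10 members called lower at 14 dpf and 14 at 22 dpf. Its mean per array ranged from 5.69 to 8.77 in morphants and from 7.87 to 11.38 in wild type at 22 dpf. The values of 3 arrays stood apart in a list of 30 liver markers, with list means of 12.2 (wild-type array 10 at 14 dpf), 11.4 (morphant array 14 at 22 dpf) and 10.1 (wild-type array 22 at 22 dpf), whereas all other arrays lay between 5.99 and 7.91. Their P450 values are described in a paragraph of their own.

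The signal of the P450 rows is given here as a description of the probes, not of transcript abundance, since probes differ in brightness and a level compares arrays within 1 row only. The median member had a mean of 6.75 over all arrays, against 7.47 for all rows. In all 4 groups the mean lay below 6 for 18 members (26.9%, against 24.8% of all rows) and above 10 for 6 members (8.96%, against 21.1%). The members varied somewhat more between arrays of a group, with a median SD of 0.757 against 0.641 for all rows. No detection calls were at hand.

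**Figure D1:**
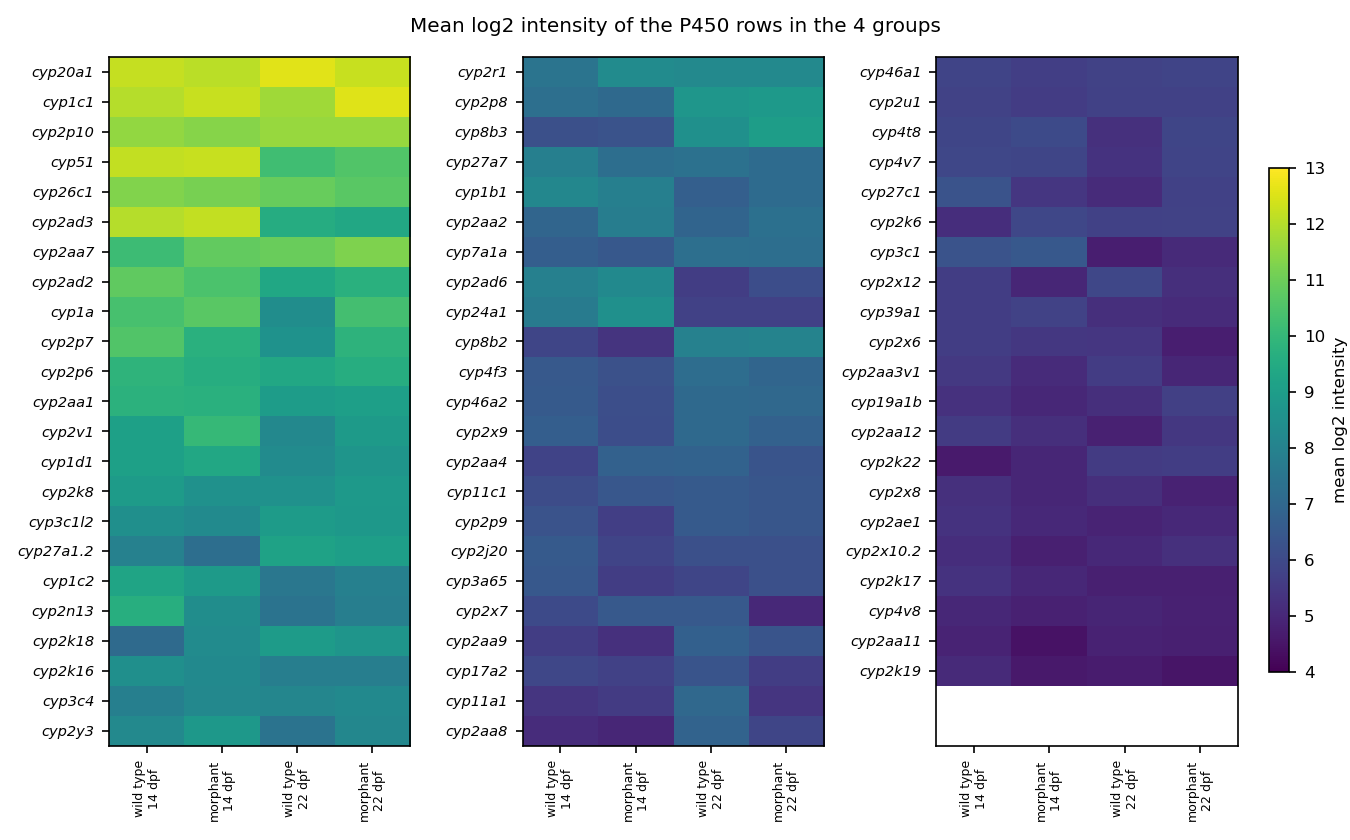
Mean log2 intensity of the 67 P450 rows (vertical axis, ordered by the mean over all arrays across 3 panels) in the 4 groups (horizontal axis). Colour gives the mean, and most rows keep the same colour across the groups, while rows such as cyp2ad3, cyp51, cyp8b2 and cyp8b3 change between the ages in both genotypes.

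Few P450 genes differed between morphants and wild type beyond the threshold. At 14 dpf, 1 of 67 members was called (1.49%, against 2.48% of all rows) and at 22 dpf 4 were called (5.97%, against 3.49% of all rows). The 1 call of 14 dpf was higher in morphants, as were 1.15% of all rows, and 1.33% of all rows were called lower. At 22 dpf 2 members were higher in morphants (0.591% of all rows) and 2 lower (2.89% of all rows). Each of the called members overlapped between the groups, as did all other members at both ages. Groups without overlap were rare in the table, at 0.0477% of all rows at 14 dpf (0.0191% with the morphants above and 0.0286% below) and 0.0508% at 22 dpf (0.0% above and 0.0508% below). Having all morphants on 1 side of the wild-type median was not confined to called members. At 22 dpf all 10 lay below it for cyp2ad3 (-0.18 ± 0.30, limma adjusted p = 0.87). At 14 dpf all 9 lay above it for cyp11c1 (0.34 ± 0.24, limma adjusted p = 0.499) and cyp2k22 (0.29 ± 0.16, 0.36). The share of all rows with such a count was not taken. Without adjustment, 11 members at 14 dpf and 12 at 22 dpf had a p below 0.05 in limma, against 16.7% and 13.9% of all rows. The median member differed by -0.19 at 14 dpf, with 24 differences above 0 and 43 below, where the median of all rows was -0.01. The liver-high wild-type array 10 had the highest mean over the members at 14 dpf, 8.30. The median array had a mean of 7.29 in wild type and 7.26 in morphants. Of the 30 liver markers, 26 were below 0 at 14 dpf and 4 above. The part of array 10 in the lean of the members was not tested. At 22 dpf the median member differed by 0.01, with 35 above 0 and 32 below, and the median of all rows was 0.04.

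**Figure D2:**
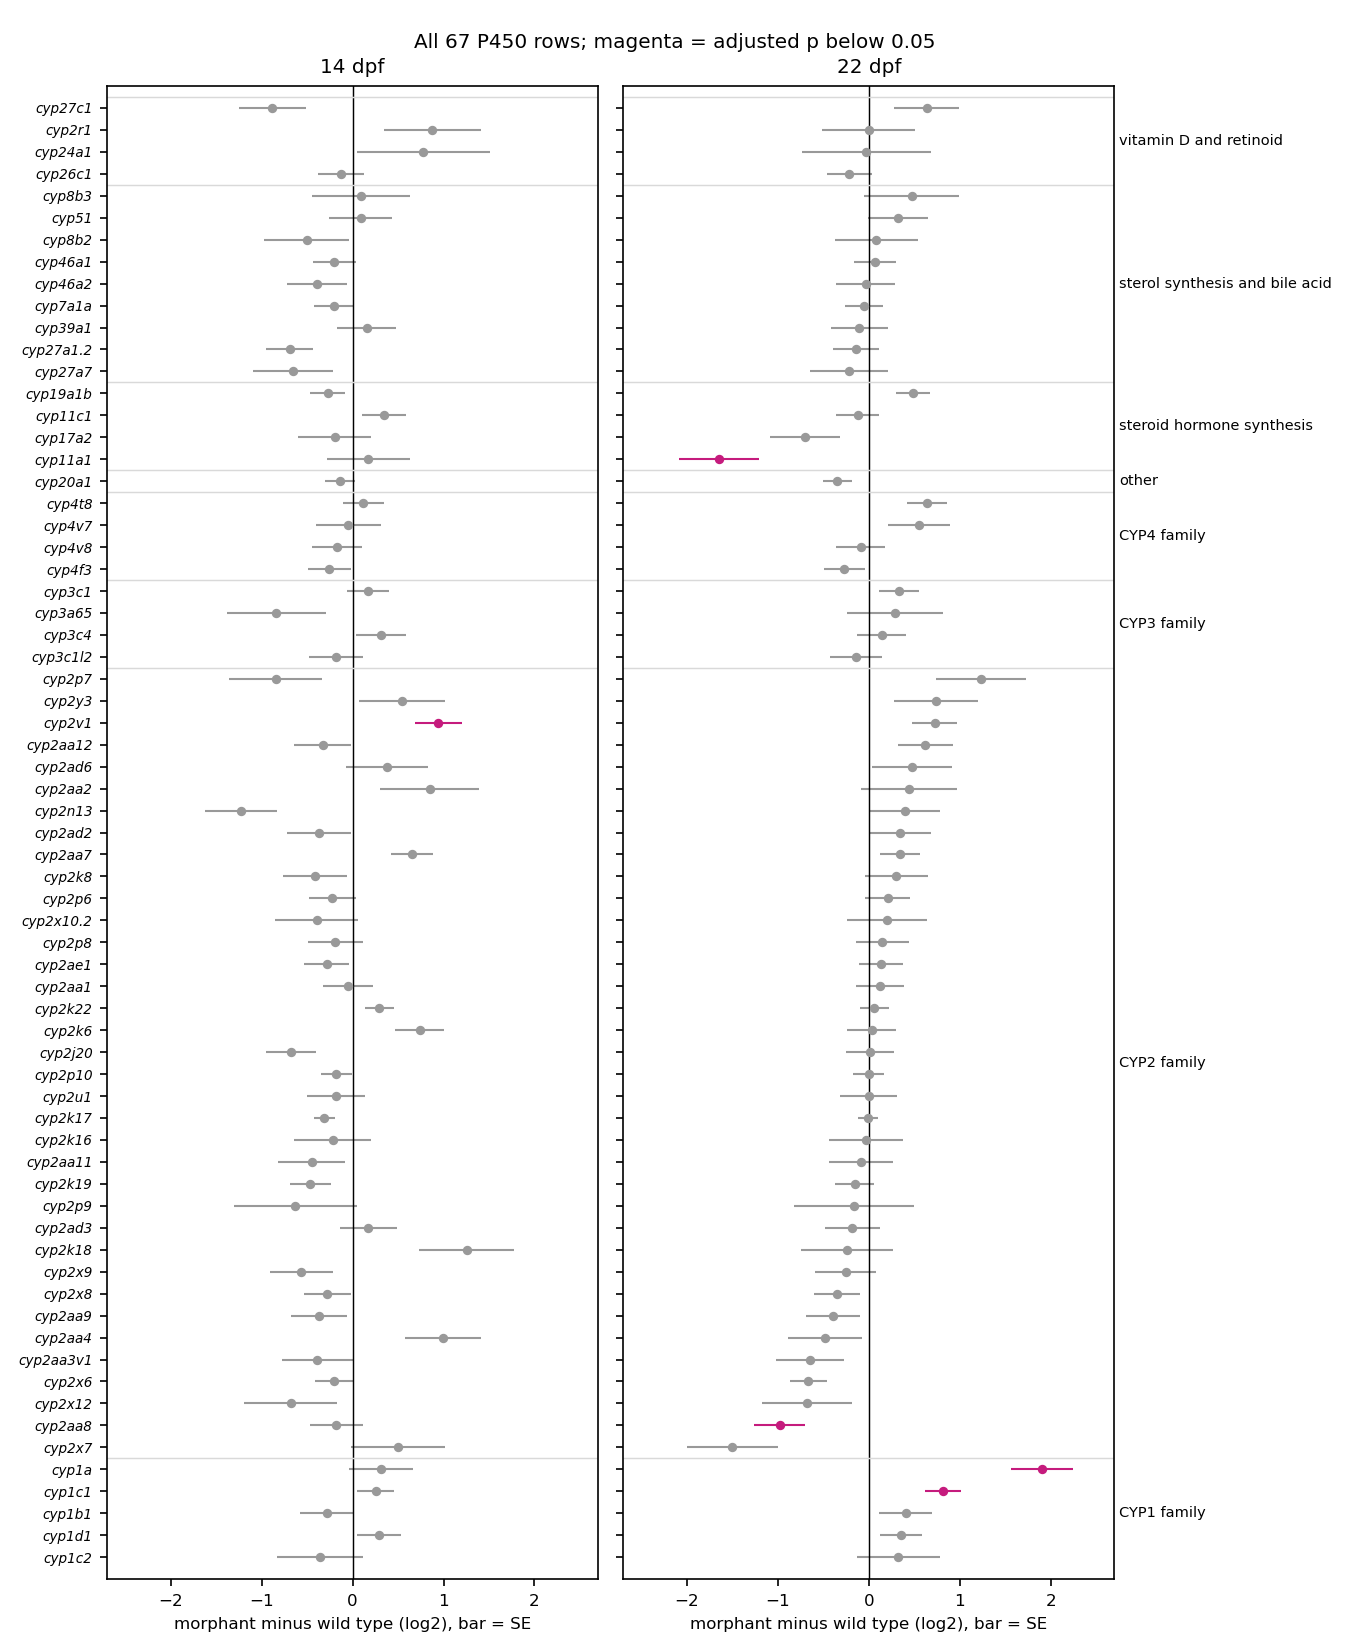
Difference in log2 intensity between morphants and wild type for the 67 P450 rows, grouped by role, at 14 dpf and 22 dpf; points are differences, bars are ± 1 SE, and magenta marks an adjusted p below 0.05. Only cyp2v1 is marked at 14 dpf and cyp1a, cyp1c1, cyp11a1 and cyp2aa8 at 22 dpf, and at 22 dpf all 5 CYP1 points lie to the right of 0.

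The CYP1 enzymes oxidise planar aromatic compounds, and cyp1a is the gene most used to read out activity of the aryl hydrocarbon receptor. At 22 dpf cyp1a and cyp1c1 were higher in morphants. In morphants cyp1a ranged from 8.95 to 11.53 with a median of 10.26, and in wild type from 5.76 to 9.93 with a median of 8.67. Of the 10 morphant arrays 6 lay above every wild-type array, and 9 of the 14 wild-type arrays lay below every morphant. Mean values were 10.31 ± 0.83 (SD, n = 10) with the morpholino and 8.40 ± 1.02 (SD, n = 14) without it. That difference of 1.90 ± 0.34 (95% interval 1.22 to 2.59, limma adjusted p = 0.000123) had all 10 morphants above the wild-type median. It was the lowest p of any member at either age.

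For cyp1c1, a fish CYP1 gene that is also induced through the aryl hydrocarbon receptor, the morphants at 22 dpf ranged from 12.02 to 13.20 with a median of 12.46. Wild type ranged from 10.53 to 12.54 with a median of 11.77. Here too all 10 morphants lay above the wild-type median, and 10 of the 14 wild-type arrays lay below every morphant. Means were 12.55 ± 0.36 (SD, n = 10) and 11.73 ± 0.63 (SD, n = 14), a difference of 0.82 ± 0.20 (95% interval 0.42 to 1.22, limma adjusted p = 0.00726).

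The other CYP1 genes differed in the same direction at 22 dpf without passing the test. Their differences were 0.41 ± 0.29 for cyp1b1 (limma adjusted p = 0.599), 0.36 ± 0.23 for cyp1d1 (0.547) and 0.33 ± 0.46 for cyp1c2 (0.839). All 5 CYP1 genes were thus positive at 22 dpf, with a median of 0.41, against 3 of 5 and a median of 0.25 at 14 dpf. Among all 67 members 35 were above 0 at 22 dpf, as were 15 of 16 nervous tissue markers and 18 of 30 liver markers. At 14 dpf the means of cyp1a were 10.68 ± 0.64 (SD, n = 9) for morphants and 10.37 ± 0.76 (SD, n = 14) for wild type, a difference of 0.31 ± 0.35 (limma adjusted p = 0.709). Its effect at 22 dpf exceeded that at 14 dpf by 1.59 ± 0.49, which did not pass the test of the difference (limma adjusted p = 0.129).

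Both calls were kept when any 1 array was left out, and with near-duplicate pairs averaged or the liver-high arrays left out. Within groups of title numbers only the cyp1a call among numbers 13 onward was kept, although both differences were larger there than over all arrays. Among numbers 1 to 12 the cyp1a difference at 22 dpf was 1.41 (limma adjusted p = 0.0659) and that of cyp1c1 0.47 (0.499), and among numbers 13 onward they were 2.36 (0.016) and 1.09 (0.0631). Whether title numbers mark a batch is not stated. The part of germ cell number itself in these values was not tested, since germ cell markers and genotype largely move together.

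Upstream of cyp1a, the receptor gene ahr2 had 22 dpf means of 12.70 ± 0.28 (morphants) and 12.33 ± 0.37 (wild type), a difference of 0.37 ± 0.13 that did not pass (limma adjusted p = 0.108). Another receptor target, ahrra, a repressor of the receptor, differed by 0.68 ± 0.34 (0.368) and tiparp, also a target, by 0.25 ± 0.26 (0.759). The conjugation and redox gene nqo1, a target of the same receptor in mammals, differed by 0.43 ± 0.22 (0.385). None of these targets passed at 22 dpf.

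**Figure D3:**
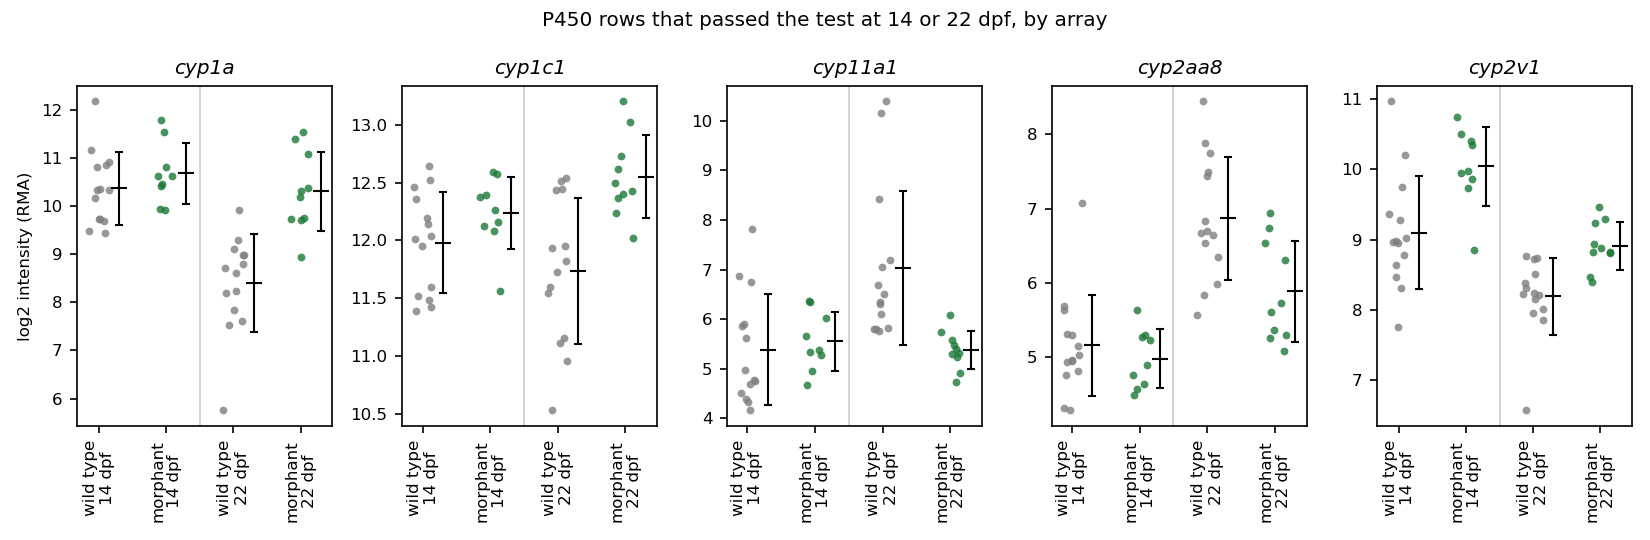
Log2 intensity per array of the 5 called P450 genes in the 4 groups (horizontal axis); points are arrays and the mark beside them is the mean ± SD. At 22 dpf the morphants sit high for cyp1a and cyp1c1 and low for cyp11a1, where 2 wild-type arrays lie above 10.

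Steroid hormone synthesis begins in mitochondria with cyp11a1, which cuts the side chain of cholesterol. At 22 dpf cyp11a1 was lower in morphants. Morphants ranged from 4.74 to 6.08 with a median of 5.36, and wild type from 5.76 to 10.39 with a median of 6.43. The groups overlapped only narrowly, with 9 of 10 morphants below every wild-type array. The top of the wild-type range was set by arrays 5 and 6, at 10.16 and 10.39, which form a near-duplicate pair, followed by array 24 at 8.43. Means were 5.38 ± 0.38 (SD, n = 10) and 7.03 ± 1.55 (SD, n = 14), a difference of -1.65 ± 0.44 (95% interval -2.54 to -0.76, limma adjusted p = 0.0211).

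The call was kept when any 1 array was left out, and lost in several other settings. Without both arrays of that pair the difference was -1.11 (limma adjusted p = 0.077), and with all near-duplicate pairs averaged it was -1.36 (0.156). With the pair kept, it was also lost with the spread of 22 dpf alone (0.0517) and with liver and intestine list means as covariates (-1.39, 0.103). Among title numbers 1 to 12, which hold the pair, the difference was -2.33 (limma adjusted p = 0.112). Among numbers 13 onward, without the pair, it was -0.91 (0.432). Wild-type arrays 5 and 6 had the highest germ cell list means of their group. Arrays 22 and 19 of wild type, next in list mean (10.81 and 10.59), had cyp11a1 values of 6.69 and 6.30, near the group median of 6.43. Array 24, next after arrays 5 and 6 in cyp11a1 at 8.43, had a germ cell list mean of 9.82, below the group median of 9.92. Morphant arrays 1 and 2, with germ cell list means of 8.68 and 8.77, had cyp11a1 values of 5.58 and 4.92, inside the range of the other morphants. Wild-type array 23, with the lowest germ cell list mean of its group (7.87), had the lowest wild-type cyp11a1 value, 5.76. The next lowest list mean, 8.46 on wild-type array 11, went with a cyp11a1 value of 6.35. The part of germ cells in the cyp11a1 difference was not tested. At 14 dpf the cyp11a1 means were 5.56 ± 0.59 (SD, n = 9) for morphants and 5.39 ± 1.13 (SD, n = 14) for wild type, a difference of 0.17 ± 0.46 (limma adjusted p = 0.896). The difference between the ages of -1.82 ± 0.64 did not pass (0.21).

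The members that serve later steps of steroid synthesis, cyp17a2, cyp11c1 and cyp19a1b, were not called at either age. The steps of cyp17a1, cyp19a1a and cyp21a2 lie outside the members and are not described here. The enzyme of cortisol synthesis cyp17a2, a hydroxylase, had 22 dpf means of 5.62 ± 0.43 in morphants and 6.32 ± 1.24 in wild type (difference -0.71 ± 0.38, limma adjusted p = 0.428). Wild-type arrays 5 and 6 were its highest too, at 8.54 and 8.66. Its partner cyp11c1, a hydroxylase on the routes to cortisol and the fish androgen 11-ketotestosterone, differed by -0.12 ± 0.23 at 22 dpf (0.889) and by 0.34 ± 0.24 at 14 dpf (0.499). Brain aromatase, cyp19a1b, had 22 dpf means of 5.71 ± 0.47 (morphants) and 5.22 ± 0.40 (wild type), a difference of 0.49 ± 0.19 (0.173), and 9 of 10 morphants lay above the wild-type median.

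A list of 7 markers chosen for interrenal tissue, the cortisol-producing tissue of fish, was examined, and none was called at either age. Which tissue of the trunk their signal came from was not tested. The most negative differences at 22 dpf were those of hsd3b1, a steroid dehydrogenase, with -1.17 ± 0.38 (limma adjusted p = 0.0788), and fdx1b, the ferredoxin that serves cyp11a1, with -1.05 ± 0.42 (0.197). The list mean ranged from 6.09 to 6.49 in morphants and from 6.34 to 7.82 in wild type at 22 dpf, and wild-type array 6 was the highest. Wild-type arrays 5, 19 and 22 followed, at 7.78, 7.16 and 7.07. Arrays 5, 6, 19 and 22 also had the highest germ cell list means of the group (11.38, 11.30, 10.59 and 10.81). The part of interrenal tissue in the cyp11a1 difference was not tested.

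Sterol and bile acid enzymes did not differ between genotypes beyond the threshold at either age, with 0 of 9 members called. In limma without adjustment 1 of 9 had a p below 0.05 at 14 dpf and 0 at 22 dpf. The lanosterol demethylase cyp51, needed for cholesterol synthesis, differed by 0.09 ± 0.34 at 14 dpf (limma adjusted p = 0.931) and by 0.32 ± 0.33 at 22 dpf (0.759). The bile acid enzyme cyp7a1a, rate-limiting in mammals, differed by -0.21 ± 0.22 (0.678) and -0.06 ± 0.21 (0.953). The mitochondrial sterol hydroxylase gene cyp27a1.2 had 14 dpf means of 7.25 ± 0.53 (morphants) and 7.94 ± 0.74 (wild type), a difference of -0.69 ± 0.26 (0.143). The sterol hydroxylases cyp8b2 and cyp8b3, whose mammalian relative makes cholic acid, differed by 0.08 ± 0.46 (0.968) and 0.47 ± 0.52 (0.779) at 22 dpf. The intervals of these last differences run from -0.83 to 1.00 and from -0.58 to 1.52, so changes of 1 log2 unit remain within them.

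Vitamin D and retinoid enzymes were not called either. The vitamin D-inactivating enzyme cyp24a1 had the widest spread of these genes at 14 dpf, from 4.73 to 12.06 in wild type and from 5.85 to 11.36 in morphants. Its difference there was 0.78 ± 0.73 (limma adjusted p = 0.642). The activating hydroxylase cyp2r1 differed by 0.88 ± 0.53 at 14 dpf (0.415) and by less than 0.01 in size at 22 dpf (-0.00 ± 0.51, 0.998). The retinoic acid-degrading cyp26c1 had group means between 10.69 and 11.30 and differed by -0.13 ± 0.26 (0.848) and -0.21 ± 0.25 (0.791). The gene cyp27c1, whose zebrafish enzyme makes vitamin A2, was lower in value in all 9 morphants than the wild-type median at 14 dpf (-0.88 ± 0.37, adjusted p = 0.198 in limma) and higher in 6 of 10 at 22 dpf (0.64 ± 0.36, 0.448). At 22 dpf morphant arrays 1 to 4, which form near-duplicate pairs, had 6.70 to 7.12. The other morphants had 4.41 to 5.71, and wild type 4.45 to 6.52. The cyp27c1 call within title numbers 1 to 12, given below, rests on those paired morphant arrays.

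The CYP2 family, the largest with 36 members, had 1 member called at each age. That is 2.78% of the family, against 2.48% of all rows at 14 dpf and 3.49% at 22 dpf. At 14 dpf cyp2v1 was higher in morphants, which ranged from 8.86 to 10.74 with a median of 9.98, against 7.75 to 10.97 with a median of 8.97 in wild type. Of the 9 morphants 8 lay above the wild-type median, but wild-type array 20 was the highest of all at 10.97. Means were 10.04 ± 0.56 (SD, n = 9) and 9.10 ± 0.81 (SD, n = 14), a difference of 0.94 ± 0.26 (95% interval 0.42 to 1.46, limma adjusted p = 0.0374). The call was lost (0.051 to 0.085) when any 1 of 11 arrays was left out, namely morphant arrays 1, 4, 5, 13, 15 and 16 and wild-type arrays 7, 10, 17, 18 and 19. With near-duplicate pairs averaged it was 0.0739 at a difference of 0.95, and with the spread estimated from 14 dpf alone 0.146. At 22 dpf all 10 morphants lay above the wild-type median and 8 of them above every wild-type array, with a difference of 0.72 ± 0.25 (0.11), which passed with the spread of 22 dpf alone (0.037). The 2 effects differed by -0.22 ± 0.36 (0.884).

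At 22 dpf cyp2aa8, from a zebrafish cluster of tandem duplicates, was lower in morphants. Morphants ranged from 5.09 to 6.94 with a median of 5.67 and wild type from 5.57 to 8.44 with a median of 6.68. The groups overlapped between 5.57 and 6.94, and 8 of 10 morphants lay below the wild-type median. Means were 5.89 ± 0.68 (SD, n = 10) and 6.87 ± 0.83 (SD, n = 14), a difference of -0.98 ± 0.28 (95% interval -1.55 to -0.41, limma adjusted p = 0.0369). The call was lost (0.061 to 0.0877) when any 1 of 11 arrays was left out, namely morphant arrays 2, 3, 4, 14, 16 and 17 and wild-type arrays 5, 6, 19, 20 and 22. It was also lost without the liver-high arrays (-0.85, 0.142) and with near-duplicate pairs averaged (-0.90, 0.166).

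No other cyp2aa row was called. At 22 dpf the other named genes of the cluster ran from -0.64 ± 0.38 for cyp2aa3v1 (limma adjusted p = 0.478) to 0.62 ± 0.30 for cyp2aa12 (0.348). For cyp2aa7 the data gave 14 dpf means of 10.82 ± 0.54 (morphants) and 10.17 ± 0.52 (wild type), a difference of 0.66 ± 0.23 (0.113). The cyp2aa4 row differed by 1.00 ± 0.42 at 14 dpf (0.201) and -0.48 ± 0.41 at 22 dpf (0.682). Probes of such duplicated genes can share sequence, and cross-hybridization among the cyp2aa, cyp2k, cyp2p and cyp2x rows was not tested.

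Several CYP2 genes lay near the threshold. For cyp2x7 the morphants at 22 dpf ranged from 3.79 to 7.84 with a median of 4.58 and wild type from 4.74 to 8.31 with a median of 6.43. The highest morphant was array 14, one of the liver-high arrays, and the next highest was array 18 at 6.03. Means were 5.02 ± 1.17 and 6.52 ± 1.08, a difference of -1.50 ± 0.50 (limma adjusted p = 0.0951). Without the 3 liver-high arrays the difference was -1.75 and passed (0.0072). Leaving out morphant array 14 alone gave -1.81 (0.0242), and leaving out wild-type array 10 of 14 dpf, which enters only through the common spread, kept -1.50 with 0.0347. The highest wild-type values at 22 dpf, 8.29 and 8.31, came from arrays 5 and 6, a near-duplicate pair. Without that pair the cyp2x7 difference was -1.20 (limma adjusted p = 0.289), and with all near-duplicate pairs averaged it was -1.25 (0.425).

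The cyp2x6 row had 22 dpf means of 4.77 ± 0.47 (morphants) and 5.43 ± 0.50 (wild type), a difference of -0.66 ± 0.20 (limma adjusted p = 0.0578). It passed (0.0317 to 0.0489) when any 1 of morphant arrays 13, 14 and 18 or wild-type arrays 11 and 12 was left out. The highest wild-type values of cyp2x6, 6.45 and 6.16, came from the near-duplicate arrays 5 and 6. Without that pair the difference was -0.52 (limma adjusted p = 0.216), and with all near-duplicate pairs averaged it was -0.53 (0.355). At 14 dpf cyp2n13, related to mammalian epoxygenases of the CYP2J group, ranged from 5.99 to 10.27 in morphants with a median of 8.46 and from 8.74 to 11.21 in wild type with a median of 9.59. Of the 9 morphants 5 lay below every wild-type array. The cyp2n13 difference was -1.23 ± 0.40 (0.0845), and it passed at -1.46 (0.0465) when morphant array 13 was left out, the only 1 of 47 such fits in which it did.

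For cyp2p7, of the same epoxygenase-related group, wild-type arrays at 22 dpf fell into 2 sets of values. Arrays 19, 20, 23 and 24 had 6.72, 5.28, 5.66 and 5.35, and the other 10 lay between 8.88 and 10.47. Those low wild-type arrays all have title numbers 13 onward, but so do wild-type arrays 21 and 22, at 10.01 and 9.59. The split was not confined to cyp2p7. Arrays 19, 20, 23 and 24 also lay below the other 10 for cyp2ad2, cyp2ad3, cyp2ad6 and cyp2n13. Their highest values were 8.35, 8.64, 4.79 and 6.52 in that order, and the lowest of the others 9.15, 9.07, 5.14 and 7.3. The cause of this shared split was not tested. For cyp2p7 the morphants ranged from 8.87 to 10.84 and also differed by title number. Morphant arrays 1 to 4 lay between 10.27 and 10.84, and morphant arrays 13 to 18 between 8.87 and 9.57. The cyp2ad6 values of morphant arrays 1 to 4 also lay above those of arrays 13 to 18, though narrowly above array 14 at 6.97. The cyp2p7 difference was 1.23 ± 0.49 (limma adjusted p = 0.204), and with the title number group as a block it was 1.59 and passed (0.014). At 14 dpf cyp2p7 differed by -0.85 ± 0.51 (0.414), and the change of effect of 2.08 ± 0.71 did not pass (0.194). Its relatives differed less at 22 dpf, by 0.21 ± 0.25 for cyp2p6 (0.799), 0.15 ± 0.29 for cyp2p8 (0.893) and 0.00 ± 0.17 for cyp2p10 (1.0), and by -0.16 ± 0.66 for cyp2p9 (0.955).

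A further 5 CYP2 genes had an unadjusted p below 0.05 at 14 dpf in limma without a call. In the whole family 9 of 36 had such a p (25.0%, against 16.7% of all rows). The difference of cyp2k18 was 1.25 ± 0.52 (limma adjusted p = 0.196), with all 9 morphants above the wild-type median. The aflatoxin-oxidising cyp2k6 differed by 0.74 ± 0.27 (0.14), where morphant array 2 at 8.09 stood above the other 8. The difference of cyp2j20 was -0.68 ± 0.27 (0.178) and that of cyp2k17 was -0.31 ± 0.11 (0.133). The fifth, cyp2k19, differed by -0.47 ± 0.22 (0.277). At 22 dpf these 5 differed by -0.24, 0.03, 0.01, -0.01 and -0.15.

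In the CYP3 family, which oxidises drugs and steroids, 0 of 4 members were called at either age. The zebrafish gene of liver and intestine cyp3a65 had 14 dpf means of 5.64 ± 0.60 (morphants) and 6.48 ± 1.83 (wild type), a difference of -0.84 ± 0.54 (limma adjusted p = 0.457). Its wild-type values there ran from 4.30 to 11.09, and the highest came from the liver-high array 10. At 22 dpf cyp3a65 differed by 0.29 ± 0.53 (0.883). The other CYP3 genes differed by at most 0.33 in size at both ages. In the CYP4 family of fatty acid hydroxylases 0 of 4 were called. At 22 dpf the cyp4t8 means were 5.89 ± 0.63 (morphants) and 5.25 ± 0.37 (wild type), which differ by 0.64 ± 0.22 (limma adjusted p = 0.108). It passed at 0.72 (0.0464) when wild-type array 21 was left out. The cyp4v7 and cyp4v8 rows, relatives of human CYP4V2, differed by 0.55 ± 0.34 (0.522) and -0.09 ± 0.27 (0.938). The orphan enzyme gene cyp20a1 differed by -0.14 ± 0.16 at 14 dpf (0.726) and -0.34 ± 0.16 at 22 dpf (0.31).

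The question whether the genotype effect changed between the ages was tested as the difference of the differences. Of 67 members 0 passed in limma (0.645% of all rows did, 0.0921% with the effect higher at 22 dpf and 0.553% with it lower), and 10 had an unadjusted p below 0.05 (11.1% of all rows did). The largest differences in size were those of cyp2p7 (2.08), cyp2x7 (0.50 at 14 dpf and -1.50 at 22 dpf, SE of the change 0.72, limma adjusted p = 0.232) and cyp11a1 (-1.82). One member passed in each of 2 alternatives, cyp2p7 with the title number group as a block and cyp2x7 without the liver-high arrays.

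Levels at the 2 ages are given side by side without a test, because the sources used here do not state whether both ages were normalized together. Every array median at 22 dpf lay above every array median at 14 dpf. In both genotypes 5 members were higher at 22 dpf by more than 1 log2 unit (7.46%, against 5.18% of all rows) and 5 lower (7.46%, against 3.88%). The 10 are named after their values had been seen. Of the sterol and bile acid genes, cyp8b2, cyp8b3 and cyp27a1.2 were among the higher ones, but the role did not move as a set. For 22 dpf minus 14 dpf, cyp7a1a differed by 0.59 in wild type and 0.74 in morphants. In the same order cyp39a1 differed by -0.41 and -0.66, and cyp27a7 by -0.535 and -0.09. The mean of cyp8b2 was 5.87 in wild type at 14 dpf and 7.95 at 22 dpf, and 5.37 and 8.04 in morphants. That of cyp8b3 was 6.21 and 8.53 in wild type and 6.30 and 9.00 in morphants, and that of cyp27a1.2 was 7.94 and 9.20, and 7.25 and 9.05. The other 2 of the 5 higher members were cyp2p8 (7.28 and 8.72 in wild type) and cyp2aa9 (5.62 and 6.74 in wild type).

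Among the lower ones, cyp51 had means of 12.16 at 14 dpf and 10.25 at 22 dpf in wild type, and 12.25 and 10.57 in morphants. The mean of cyp2ad3 was 12.02 and 9.59 in wild type and 12.19 and 9.40 in morphants, and cyp2ad6 of the same subfamily had 7.91 and 5.64, and 8.28 and 6.12. Means of cyp24a1 were 7.73 and 5.76, and 8.51 and 5.73. The gene cyp3c1 had 6.29 and 4.74, and 6.46 and 5.07. For cyp1a the wild-type mean was 1.97 lower at 22 dpf than at 14 dpf and the morphant mean 0.38 lower.

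Arrays with high liver markers also had high values for a set of P450 genes. On wild-type array 10 at 14 dpf 21 of 67 members (31.3%, against 5.51% of all rows) had their highest value of the group, and 15 (22.4%, against 1.97%) lay more than 2 log2 units above the median of the other arrays. On morphant array 14 at 22 dpf 18 members were highest (26.9%, against 8.79%) and 9 were more than 2 units above (13.4%, against 1.68%). On wild-type array 22 at 22 dpf the numbers were 7 (10.4%, against 6.99%) and 5 (7.46%, against 2.05%). These are descriptions of 3 arrays chosen by their liver markers, with no test.

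The genes more than 2 units above on all 3 arrays were cyp2p9, cyp2x12 and cyp3a65. For cyp2p9, wild-type arrays outside these 3 reached higher values. It was 8.62 on wild-type array 10, where the others reached 10.04 on array 23, with a liver list mean of 6.54. On wild-type array 22 cyp2p9 was 9.58, where the others reached 9.96 on array 21. That array had a liver list mean of 7.91, the highest outside the 3 liver-high arrays. On wild-type array 10 cyp3a65 was 11.09, where the other 13 arrays had a median of 6.04 and reached 7.95. It was 9.13 on morphant array 14 against a median of 5.95, and 8.68 on wild-type array 22 against 5.47. A further 5 genes did so on 2 of the arrays, cyp24a1, cyp2ad2, cyp2k18, cyp2x10.2 and cyp2x7. Of these, cyp2k18 was 10.16 on wild-type array 10, where the others reached 10.37. The cyp24a1 value of morphant array 14 was 7.19, where the others reached 7.89. For cyp2x10.2, array 10 had 9.27 and array 14 had 9.63, with medians of 4.94 and 4.29 in the others. Of the 18 intestine markers 6 (33.3%) lay more than 2 units above on wild-type array 10, 4 (22.2%) on morphant array 14 and 1 (5.56%) on wild-type array 22. For the 30 liver markers these shares were 83.3%, 86.7% and 76.7%. How much of these values comes from liver or gut in the sample was not tested.

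**Figure D4:**
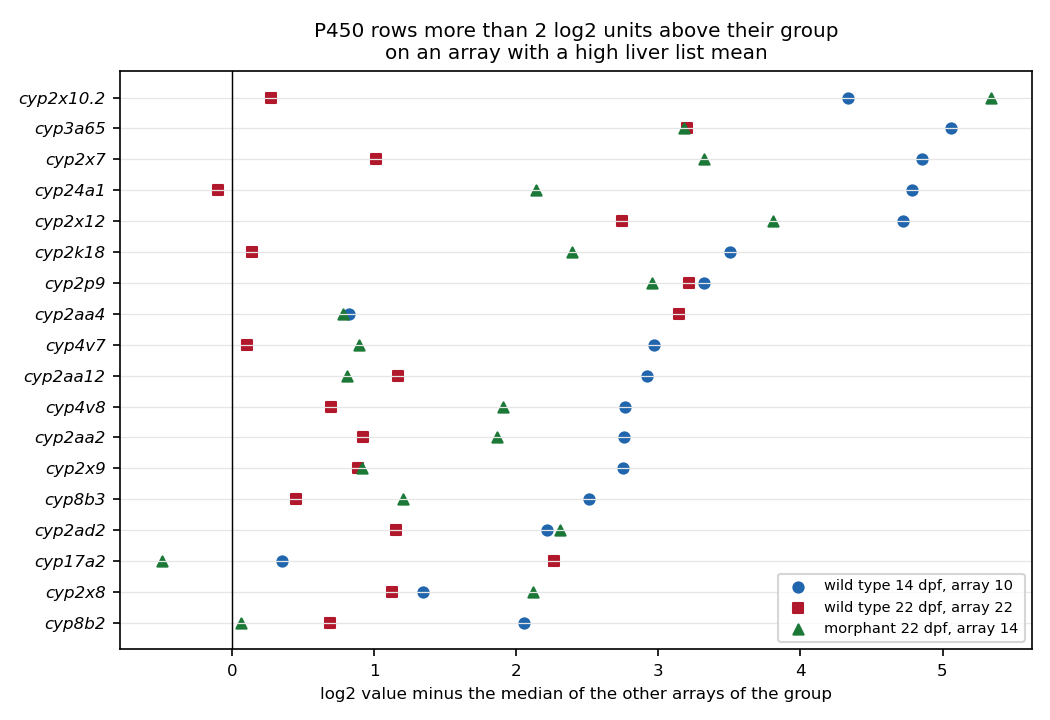
Log2 intensity minus the median of the other arrays of the group (horizontal axis) for the 18 P450 genes (vertical axis) with an excess above 2 on at least 1 of the 3 liver-high arrays. Circles, squares and triangles are those 3 arrays, and cyp3a65, cyp2x12 and cyp2p9 lie above 2 on each of them.

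The markers of other tissues were counted between the genotypes. Of 30 liver markers, 0 were called at 14 dpf, and 1 rose at 22 dpf, tat, a tyrosine-degrading enzyme (1.35 ± 0.39, limma adjusted p = 0.0343), which is 3.33% of the list against 3.49% of all rows. Intestine markers gave 0 of 18 calls at both ages, nervous tissue markers 0 of 16, and of 19 kidney markers slc12a3, a salt transporter, rose (0.83 ± 0.22, 0.0286) and podxl, a podocyte protein, fell (-0.62 ± 0.15, 0.015) at 14 dpf. These 2 are 10.5% of the kidney list, against 2.48% of all rows. At 22 dpf 0 of 19 kidney markers were called. Without adjustment 5 of them had a p below 0.05 in limma there (26.3%, against 13.9% of all rows). With the liver list mean as a covariate the P450 calls at 14 dpf were the same gene, and at 22 dpf the 4 called genes were joined by cyp2x6 and cyp2x7. With both the liver and intestine list means as covariates, limma adjusted p values were 0.0527 for cyp2v1 at 14 dpf and, at 22 dpf, 0.103 for cyp11a1 and 0.102 for cyp2aa8, so that these calls were lost. Those of cyp2x6 (0.142) and cyp2x7 (0.0864) did not pass there either, and cyp1a and cyp1c1 were still called.

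The proteins that serve P450 enzymes were also examined by list. Of 12 electron donor genes 0 were called at either age, in limma, while 2 at 14 dpf (16.7%, as of all rows) and 5 at 22 dpf (41.7%, against 13.9% of all rows) had an unadjusted p below 0.05. P450 reductase, por, differed by 0.33 ± 0.15 at 22 dpf (adjusted p = 0.308 in limma) and cytochrome b5, cyb5a, by 0.59 ± 0.21 (0.138). Of 36 regulators 3 were called at 14 dpf (8.33%, against 2.48% of all rows). The nuclear receptor nr1i2, a sensor of foreign compounds that controls CYP3 genes, fell by 0.86 (SE 0.25, limma adjusted p = 0.0476) and the repressor nr0b2a, which restrains bile acid synthesis in mammals, fell too (-1.50 ± 0.28, 0.0023). The clock gene arntl1a rose by 0.89 (SE 0.24, 0.0373). At 22 dpf 0 of 36 regulators were called and 4 had an unadjusted p below 0.05, with the nuclear receptor partner rxraa at 0.56 ± 0.18 (0.0845).

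Heme supply and conjugation were described in the same way. Of 15 genes of heme synthesis and breakdown, blvra, a biliverdin reductase, fell by 1.93 (SE 0.33, limma adjusted p = 0.000804) and fech, which inserts iron to form heme, fell by 0.73 (SE 0.16, 0.0083) at 14 dpf. These 2 are 13.3% of the list, against 2.48% of all rows. At 22 dpf hmox2b, a heme oxygenase, rose by 0.60 (SE 0.17, 0.028), which is 6.67% of the list against 3.49% of all rows. The first enzyme of heme synthesis outside red cells, alas1, differed by -0.58 ± 0.20 at 14 dpf (0.118). Of 52 conjugation genes 0 were called at 14 dpf, where 5 had an unadjusted p below 0.05 in limma, and 1 at 22 dpf, the sulfotransferase sult1st1, which rose by 0.92 (SE 0.23, 0.0123). That is 1.92% of the list, against 3.49% of all rows. The medians of the 52 were -0.06 at 14 dpf and 0.16 at 22 dpf.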

How the data were processed

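Each array has 1 deposited log2 intensity for every row, made by the authors with RMA, per the submitters' processing notes, which give no version. Arrays have no read depth, so their number limits the precision. RNA of developing trunks was amplified and hybridized to 1-colour arrays with Cy3, per the labels. Groups were taken from the labels, and 0 columns lacked a sample. Of the 10 replicates that the labels state for morphants at 14 dpf, 9 were used here. No row was filtered, and no value was changed. Current symbols for the row names came from reference tables of zebrafish genes, which gave 1 gene for 19359 rows, none for 12070 and several for 46.

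A model of the 4 group means was fitted to all 31475 rows with limma 3.58.1 in R 4.3.3, with 43 residual degrees of freedom and eBayes. Contrasts were morphant minus wild type at 14 and at 22 dpf and the difference of these effects, with Benjamini-Hochberg adjustment over all rows and calls at an adjusted p below 0.05. The fit was tested on simulated data.

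The members, the 10 marker and partner lists (P450 electron donors, P450 regulators, heme synthesis and breakdown, phase II conjugation, germ cell, liver, intestine, kidney, interrenal and nervous tissue) and the tests were chosen with earlier results of these data known. Genes were named by a rule: members called in a contrast, the 12 with the smallest p at each age, the 6 with the highest and 4 with the lowest mean, the 6 with the largest SD within a group, the 6 with the largest difference between the wild-type means of the ages, and members of textbook role, 48 in all. Members named outside it are given as ranges, as a set of arrays or with a remark. Of the lists, called genes and up to 4 with the smallest p were named, besides the receptor targets and electron donors picked by role.

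Alternatives were the spread of each age alone, a mean of at least 6, arrays centred on their median, the title number group (1 to 12, 13 onward) as a block and each group alone, near-duplicate pairs averaged to 41 samples, liver or liver and intestine list means as covariates, eBayes with trend and robust settings, array weights, and each of the 47 arrays left out. Arrays alone in title number groups, both covariates together, the liver-high arrays left out (liver list mean above 9) and wild-type arrays 5 and 6 left out were added after seeing the data.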

Additional observations from a re-analysis of the deposited data

Results flagged for a closer look

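Single arrays stood apart from the rest of their group in 10 of the 96 sets of values tested (48 named members in the morphant groups of each age), by Dixon's test, which chance alone flags in about 1 of 20 groups. The wild-type groups, with more than 10 arrays, were not tested. Among morphants at 14 dpf, array 2 had cyp11c1 at 8.05 where the others ran from 5.87 to 6.92, and cyp2k6 at 8.09 where the others ran from 5.07 to 6.53. Array 4 had cyp2aa11 at 5.56 (others 4.01 to 4.63) and cyp2aa12 at 6.67 (others 4.52 to 5.47). Array 16 had cyp1c1 at 11.56, below the others at 12.09 to 12.59, and array 5 had cyp2k17 at 4.40, below 4.93 to 5.30. Among morphants at 22 dpf, array 14, which had high liver markers, had cyp3a65 at 9.13 (others 4.78 to 6.89) and cyp4v8 at 6.51 (others 4.38 to 5.34). Array 18 had cyp20a1 at 10.88, below 11.95 to 12.71, and array 17 had cyp2aa4 at 4.90, below 6.14 to 7.17.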

How the results depend on the processing

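The 1 P450 call of 14 dpf became 0 with the spread of that age alone, with title numbers 1 to 12 alone, with near-duplicate pairs averaged and with liver and intestine means as covariates, and 2 with title numbers 13 onward (cyp24a1 and cyp2aa7). The 4 calls of 22 dpf became 2 with a mean of at least 6 (43 members tested), with pairs averaged, with liver and intestine means as covariates and without wild-type arrays 5 and 6, 1 within each title number group (cyp27c1 and cyp1a) and 7 with array weights. The filter on the mean removed cyp11a1 (5.91 over all arrays) and cyp2aa8 (5.79), so these calls were not tested there. The 0 calls for the change of effect became 1 with the title number block and 1 without the liver-high arrays. Leaving out 1 array at a time gave 0 to 1, 3 to 5 and 0 to 0 calls. Over all rows, the 780 and 1097 calls became 195 at 14 dpf with that age's own spread, 400 and 667 with pairs averaged, 45 and 455 for numbers 1 to 12 and 462 at 22 dpf for 13 onward, and 1753 at 22 dpf with array weights, and the 203 became 66 with pairs averaged, 0 and 30 within title number groups and 102 with both covariates. Centring arrays on their median moved the share of 14 dpf calls that were higher in morphants from 46.4% to 60.0%. Among title numbers 1 to 12 the 14 dpf differences reversed for cyp1a (-0.36) and cyp11a1 (-0.14), neither called. Of the other values for named members, 318 kept direction and side of the threshold, 21 lost a call and 10 gained one. With 1 array left out these were 1285, 22 and 9. Rows not called in the main fit have no call to lose, so these counts do not measure how stable the calls were. At 22 dpf the cyp1a call was kept in 12 of 13 alternatives, cyp1c1 in 11 of 13, cyp11a1 in 6 of 12 and cyp2aa8 in 5 of 12. The cyp2v1 call at 14 dpf was kept in 8 of 13. With 1 array left out, cyp2aa8 and cyp2v1 each kept their call in 36 of 47 fits, and the other called genes in all 47. The cause of these shifts was not tested beyond the smaller numbers of arrays or rows. No paired analysis was possible because the groups compared share no title number. Precision depends on how many arrays a group has, and no detection calls mark which dim values are background.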

Other observations

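A further 6 rows carry clone names that the reference tables now assign to P450 genes, and they were outside the name rule. One of them is cyp2aa6, with a mean of 11.93 ± 0.37 (SD, n = 14) in wild type and 11.89 ± 0.50 (SD, n = 9) in morphants at 14 dpf, and 11.75 ± 0.40 (SD, n = 14) and 12.01 ± 0.42 (SD, n = 10) at 22 dpf. The mean of cyp27a3 was 6.23 in wild type and 7.19 in morphants at 14 dpf, and 6.14 and 6.86 at 22 dpf. That of cyp8b1.1, a relative of the cyp8b2 and cyp8b3 rows, was 6.51 and 6.86 at 14 dpf, and 7.11 and 7.54 at 22 dpf. The cholesterol hydroxylase relatives cyp46a1.2 and cyp46a1.3 lay between 7.77 and 8.56 in all 4 groups, and cyp46a1.5 between 5.08 and 5.51. These rows are given as levels, with no test.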
